A study of Mus musculus with 6 samples.

Results

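The mature miRNAs described here are mmu-miR-7a-5p, mmu-miR-7b-5p and mmu-miR-7a-1-3p of the mouse miR-7 family and both arms of miR-671 (mmu-miR-671-5p and mmu-miR-671-3p). They were chosen by name for the circular RNA Cdr1as, on which miR-7a-5p, miR-7b-5p and miR-671-5p meet. The others, miR-7a-1-3p and miR-671-3p, are opposite arms of the same hairpins. All 5 were found among the 1182 rows of the table, and all 5 were among the 541 rows with enough reads to be tested. Small RNA had been sequenced from the brain cortex of untreated adult male mice, with 3 libraries labelled fmr1 KO and 3 labelled fmr1 WT. The product of Fmr1, FMRP, binds messenger RNAs and restrains their translation in neurons. The labels give neither the knockout allele nor the exact age. Samples were of matched age, and nothing in the labels says that every library came from its own animal, so the spread between libraries may be partly technical.

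MicroRNAs guide Argonaute proteins to messenger RNAs that match their seed, which is bases 2 to 8 counted from the 5′ end. Cdr1as is a circular RNA of neurons that carries many miR-7 seed matches and binds miR-7 without being cut by it. miR-671-5p pairs with Cdr1as along most of its length and directs its slicing by Argonaute 2. A further long noncoding RNA, Cyrano (Oip5os1), pairs with miR-7 beyond the seed and directs the decay of miR-7. In mice without Cdr1as, brain miR-7 is known to be lower and miR-671-5p higher. Neither Cdr1as nor Cyrano nor the mRNA of Fmr1 was measured by these small RNA libraries, so the genotype labels could not be checked from the data.

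The mature sequences are shown because the seed sorts the 5 miRNAs into groups and because the miR-7 guides are nearly alike. Sequences are from RefSeq (GRCm38.p6), where all 5 names matched, and the capitals mark the seed.
miR-7a-5p: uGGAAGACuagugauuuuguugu
miR-7b-5p: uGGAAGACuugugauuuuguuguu
miR-671-5p: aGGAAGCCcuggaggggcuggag
miR-671-3p: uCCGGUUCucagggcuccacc
miR-7a-1-3p: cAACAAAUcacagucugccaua

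The guides miR-7a-5p and miR-7b-5p share their seed, and no other RefSeq mouse miRNA has it. Over the 23 bases they have in common they differ at 1 position counted from the 5′ end, A10U from miR-7a-5p to miR-7b-5p. Reads of the guides can therefore be told apart by that base, and a sequencing error there moves a read from one to the other. The seed of miR-671-5p matches that of miR-7 at 6 of 7 bases, the difference being A7C. The seeds of miR-671-3p and miR-7a-1-3p were shared with no other RefSeq mouse miRNA.

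These miRNAs come from 4 hairpins (GRCm38, GENCODE M21). Mir7-1 lies on chromosome 13 (58392779 to 58392886, minus strand) in an intron of Hnrnpk, the gene of an RNA-binding protein, and gives miR-7a-5p and the star strand miR-7a-1-3p. Mir7-2 on chromosome 7 (78888277 to 78888373, plus strand) gives the same miR-7a-5p and the star strand miR-7a-2-3p. Mir7b on chromosome 17 (56242988 to 56243098, plus strand) gives miR-7b-5p. Neither Mir7-2 nor Mir7b lies within another annotated gene. Mir671 on chromosome 5 (24592114 to 24592211, plus strand) lies in a coding exon of Chpf2, a gene of chondroitin synthesis, opposite an exon of a Smarcd3 transcript on the minus strand.

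The target sequence shows what joins the 2 groups. The Cdr1as exon spans 2927 bases of chromosome X (61183248 to 61186174, plus strand, GRCm38), and its sequence was taken from the GENCODE transcript that holds it. The complement of the miR-7 seed, GTCTTCC, occurs 123 times on its sense strand and 0 times on the other strand. Among 12721 windows of the same length, each the 3′ end of a gene's longest transcript, 24.2% hold at least 1 such match and the highest count is 5. Matches in the exon begin a median of 18 bases apart. With an A opposite base 1 as well (GTCTTCCA, a subset of these matches) there are 34, and 7.81% of windows hold at least 1. The complement of the miR-671-5p seed, GGCTTCC, occurs 1 time in the exon, and 25.9% of windows hold it. That of the miR-671-3p seed, GAACCGG, occurs 0 times, and 4.86% of windows hold it.

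**Figure D1:**
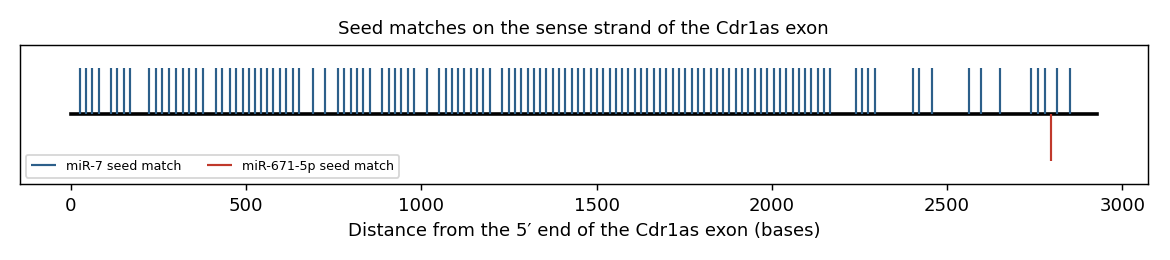
Seed matches along the sense strand of the Cdr1as exon, by distance in bases from its 5′ end. The 123 miR-7 matches (blue, above the line) run along nearly the whole exon, and the 1 miR-671-5p match (red, below) lies near its 3′ end, at 2796 bases.

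Pairing beyond the seed separates the miRNAs further, and 4 sites on Cdr1as and Cyrano are printed to show it, 5′ to 3′. In the Cdr1as sites, capitals mark bases that form Watson-Crick pairs with the miRNA aligned without gaps. In the Cyrano site, which needs a bulge, capitals mark the seed match alone.
Cdr1as with miR-671-5p, chrX:61186029-61186051, plus strand: tTCCAGCatCTCCAGGGCTTCCa
Cdr1as with miR-7a-5p, most pairs, chrX:61183571-61183593, plus strand: tCcAgAAAAatcCaAGTCTTCCA
Cdr1as with miR-7a-5p, fewest pairs, chrX:61183741-61183763, plus strand: ttccagctcatctatGTCTTCCA
Cyrano with miR-7a-5p, chr2:119602133-119602161, plus strand: aagaacaacaaaatcaccaatGTCTTCCa

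The miR-671-5p site pairs at 19 of 23 bases with 2 further G-U pairs, and its run of pairs from base 2 to base 14 has no gap. It is the best ungapped placement of miR-671-5p in the exon, and the next best, elsewhere in the exon, pairs at 17 bases. The 123 miR-7a-5p sites pair at 8 to 16 of 23 bases, with a median of 13, and 0 of them pair throughout. Set against the same sites, miR-7b-5p pairs at a median of 14 bases. It pairs at more bases than miR-7a-5p in 102 sites, at fewer in 2 and equally in 19. The 2 guides differ at base 10 alone over the length compared, so this count reflects that base. In the longest Cyrano transcript of GENCODE (8300 bases, 2 miR-7 seed matches) the site shown pairs at 14 of the 15 bases that follow base 8 when 2 target bases are left unpaired. These matches describe sequence and say nothing of binding in these cortices.

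Library depth ran from 11182888 to 15733876 miRNA reads, and levels are given as counts per 1e6 reads (CPM) after scaling by the trimmed mean of M-values (TMM). A read stands for a whole small RNA, so CPM needs no length term, although miRNAs are ligated with unequal efficiency and levels of different miRNAs compare read yields. Spread was wider in KO than in WT for 452 of the 541 tested miRNAs, with a median SD of log2 CPM of 0.396 against 0.14. KO replicate 3 stood apart: without it 18 of 560 tested miRNAs passed the test of genotype, against 0 of 541 with all libraries. Values of the 5 miRNAs that it moves most are given with and without it.

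The miR-7 guides had lower values in KO cortex, and miR-671-5p had higher ones, but 0 of the 5 miRNAs passed the test (edgeR quasi-likelihood test, adjusted p under 0.05). The share called was 0% of the 541 tested miRNAs, with 35 of them (6.47%) at an unadjusted p under 0.05 (edgeR). Of the 5, miR-7a-5p alone was at an unadjusted p under 0.05. DESeq2 called 0 of 1182, with 40 under an unadjusted p of 0.05. The limma-voom test called 0 of 541, with 34 under that p. KO and WT libraries did not overlap for 3 of the 5, miR-7a-5p, miR-7b-5p and miR-671-5p, where 15.7% of all tested miRNAs did not overlap. Groups were apart with KO lower in 10.5% of tested miRNAs and with KO higher in 5.18%. The count of 3 depended on the scaling: it was 2 with RLE size factors, 2 with TMM computed without the 5 most abundant miRNAs, and 1, miR-7a-5p, with column totals alone. Without KO replicate 3 it was again 3, where 34.2% of all tested miRNAs were then apart, and without KO replicate 1 it was 5, where 33.3% were.

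The most abundant of the 5, miR-7a-5p, ranked 25 by mean level in the table. In CPM, KO replicates 1 to 3 stood at 5713, 4410 and 4816, and the WT libraries at 6695, 6138 and 6831. Every KO library lay below every WT library, KO replicate 2 being the lowest, and this held under each of the 4 library scalings tried. The KO mean of 4980 ± 667 CPM was 76.0% of the WT mean of 6555 ± 367 CPM (SD, n = 3 each). The log2 fold change was -0.40 (SE 0.15, 95% interval -0.73 to -0.06), with an adjusted p of 0.705 and an unadjusted p of 0.0265 (edgeR). By that p it ranked 20 among 541. Over the 14 alternatives the log2 fold change stayed between -0.49 and -0.36 and the adjusted p between 0.131 and 0.999. Without KO replicate 3 it was -0.36 (edgeR adjusted p = 0.131). In bulk tissue, fewer cells that hold miR-7 and less miR-7 per cell cannot be told apart.

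The sister guide miR-7b-5p was less abundant and ranked 67. KO libraries stood at 724.2, 606.6 and 782.6 CPM, WT libraries at 893.0, 804.4 and 879.3 CPM. KO replicate 2 was again lowest, and KO replicate 3 came close to WT replicate 2. The means of 704.5 ± 89.6 and 858.9 ± 47.7 CPM (SD, n = 3 each) differed on the log2 scale by -0.29 (SE 0.16, 95% interval -0.65 to 0.08), with an adjusted p of 0.749 (edgeR). With RLE size factors KO replicate 3 (825.1 CPM) lay above WT replicate 2 (798.6 CPM), so the groups overlapped. Without KO replicate 3 the log2 fold change was -0.35 (edgeR adjusted p = 0.118).

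Because reads can move between the guides, their sum was also tested. It came to 6437, 5017 and 5599 CPM in KO, against 7588, 6942 and 7710 CPM in WT, with every KO library below every WT library. Since each guide was already apart on this scale, the separation of the sum and its permutation p follow and are no further evidence. The difference in the mean log2 level of the sum was -0.39. The exact two-sided permutation p of 0.1 is the smallest that 3 against 3 libraries can give (adjusted p = 0.167 over the sum and 4 ratios). The miR-7b-5p share of the summed guide reads was 11.3%, 12.1% and 13.98% in KO and 11.8%, 11.6% and 11.4% in WT. In KO replicate 3 its exact 95% binomial interval was 13.7% to 14.2%, apart from those of the WT libraries, which ran from 11.2% to 11.96%. The log2 ratio of miR-7b-5p to miR-7a-5p differed by 0.11 between genotypes (exact permutation p = 0.5, adjusted p = 0.5, groups overlapping). Without KO replicate 3 this difference was 0.01, and without KO replicate 1 it was 0.19.

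**Figure D2:**
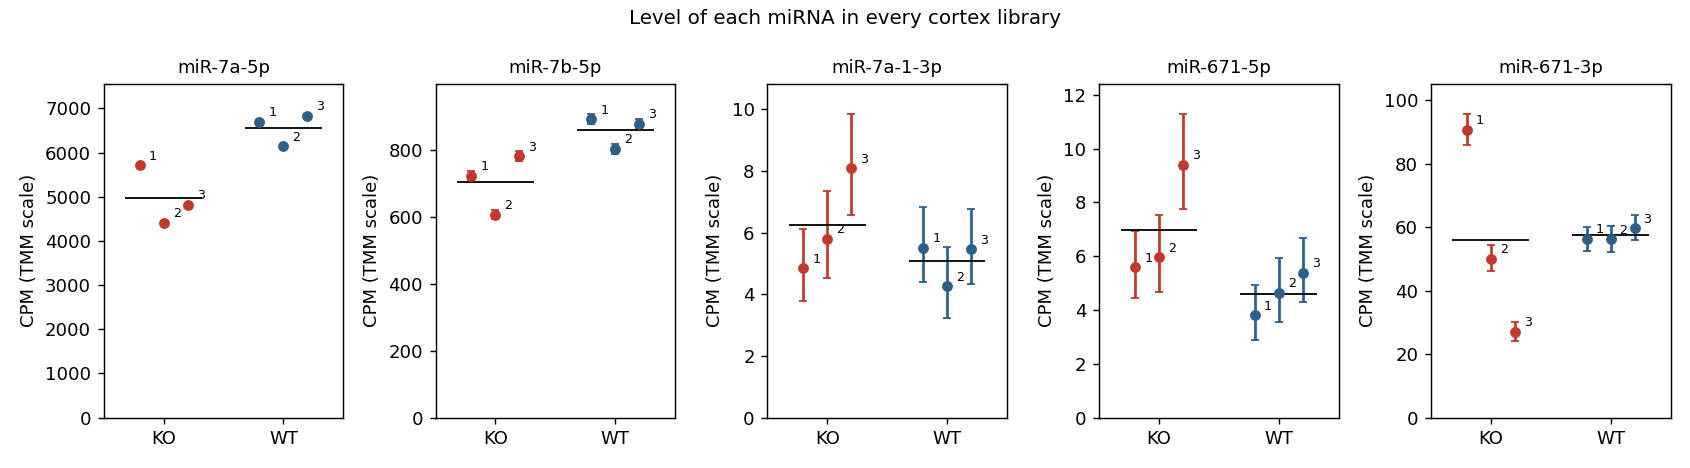
Level of each miRNA in CPM on the TMM scale (y axis, from 0) in every library, KO in red and WT in blue, numbered by replicate. Bars are exact 95% Poisson intervals of the read count and cover counting error alone, and black lines are group means. The KO libraries lie below the WT libraries for both miR-7 guides and above them for miR-671-5p, while for miR-671-3p they run from 27.0 to 90.6 CPM around tightly grouped WT libraries.

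Star strands are the arms of a hairpin that are mostly discarded. For that of Mir7-1 the fitted change was upward, with an interval that spans no change. KO libraries had 4.85, 5.80 and 8.08 CPM of miR-7a-1-3p, WT libraries 5.51, 4.27 and 5.46 CPM. KO replicate 3 was highest, and the groups overlapped. The log2 fold change was 0.29 (SE 0.26, 95% interval -0.31 to 0.90), with an adjusted p of 0.791 (edgeR). It was 0.08 without KO replicate 3 and 0.46 without KO replicate 1. With 463 reads over all libraries, counting error alone is wide: the exact 95% Poisson interval was 6.56 to 9.84 CPM in KO replicate 3 and 4.34 to 6.77 CPM in WT replicate 3.

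Outside the 5, miR-7a-2-3p, the star strand of Mir7-2, had KO values of 7.85, 6.56 and 5.85 CPM against WT values of 7.01, 6.11 and 7.23 CPM. The log2 fold change was -0.01 (SE 0.22, edgeR adjusted p = 0.994). The star strand of Mir7b, miR-7b-3p, had 58 reads in all, at 0.484 ± 0.269 CPM for KO against 0.894 ± 0.366 CPM for WT (SD, n = 3 each). Its groups overlapped and its log2 fold change was -0.92 (SE 0.56, edgeR adjusted p = 0.749).

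Within a library, the ratio of guide to star reads does not depend on scaling. There were 1171, 754.4 and 593.2 reads of miR-7a-5p for each read of miR-7a-1-3p in KO replicates 1 to 3, and 1209, 1425 and 1244 in the WT libraries. All KO libraries lay below all WT libraries, with KO replicate 1 close to WT replicate 1. The mean log2 ratio was 9.65 ± 0.50 for KO against 10.33 ± 0.13 for WT (SD, n = 3 each), a difference of -0.68 (exact permutation p = 0.1, the smallest possible, adjusted p = 0.167). It was -0.46 without KO replicate 3. Since Mir7-2 supplies miR-7a-5p too, this ratio is not that of a single hairpin.

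For miR-671, the arm that slices Cdr1as was the rarer of the pair. KO libraries had 5.60, 5.97 and 9.40 CPM of miR-671-5p, WT libraries 3.80, 4.64 and 5.39 CPM. The KO libraries were all above the WT libraries, but narrowly: KO replicate 1 and WT replicate 3 each had 82 reads, and their exact 95% Poisson intervals were 4.45 to 6.95 and 4.29 to 6.69 CPM. With column totals alone KO replicate 2 (4.94 CPM) fell within the WT range. The KO mean was 6.99 ± 2.09 CPM against a WT mean of 4.61 ± 0.80 CPM (SD, n = 3 each). The log2 fold change was 0.60 (SE 0.28, 95% interval -0.04 to 1.24), with an adjusted p of 0.749 and an unadjusted p of 0.0639 (edgeR). Without KO replicate 3, the highest library, it was 0.34 (edgeR adjusted p = 0.5), and over the 14 alternatives it ran from 0.34 to 0.75. In WT, where the levels of miR-671-5p and miR-7a-1-3p came to 4.61 and 5.08 CPM, these 2 did not differ beyond their spread. The order of the other levels, from miR-7a-5p through miR-7b-5p to miR-671-3p, had no overlap between neighbours in any library.

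The other arm, miR-671-3p, ranked 182 in the table and varied among KO libraries without a common direction. KO libraries stood at 90.6, 50.0 and 27.0 CPM, WT libraries at 56.3, 56.2 and 59.7 CPM. KO replicate 1 lay above and KO replicates 2 and 3 below every WT library. The coefficient of variation was 57.6% in KO and 3.50% in WT, and 60 of 541 tested miRNAs had a larger SD of log2 CPM in KO. The log2 fold change was -0.04 (SE 0.38, 95% interval -0.91 to 0.83), with an adjusted p of 0.986 (edgeR). Leaving out KO replicate 3 turned it to 0.30, and leaving out KO replicate 1 moved it to -0.56.

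**Figure D3:**
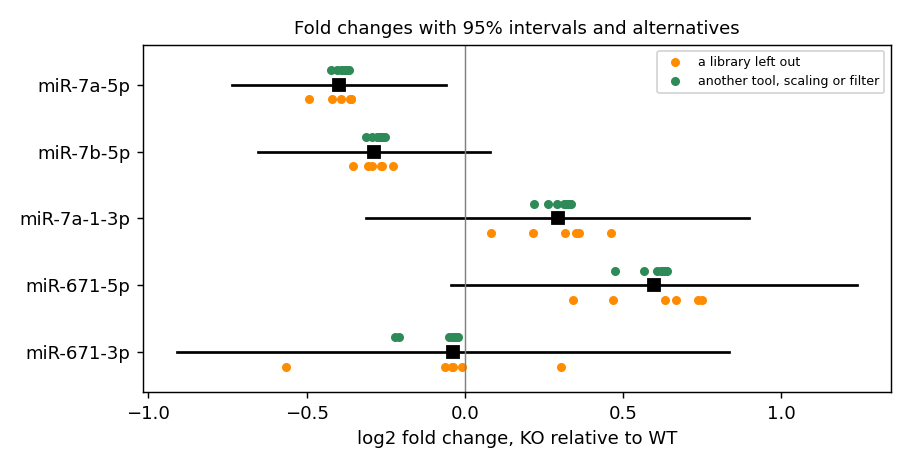
Log2 fold change of KO relative to WT (x axis) with all 6 libraries (black square, line = 95% interval), with each library left out (orange) and with other tools, scalings or filters (green). The miR-7 guides lie on the lower side and miR-671-5p and miR-7a-1-3p on the higher side in all settings plotted, while miR-671-3p changes sign with the library left out.

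The balance of the miR-671 arms moved with these swings. The 5p arm made up 5.82% (exact 95% binomial interval 4.65% to 7.17%), 10.7% (8.42% to 13.3%) and 25.8% (21.8% to 30.1%) of miR-671 reads in KO replicates 1 to 3. In WT it made up 6.32%, 7.63% and 8.28%, with intervals between 4.84% and 10.2%. KO replicate 3 was thus apart from all other libraries by more than counting error, with 114 reads of the 5p arm and 328 of the 3p arm. The log2 ratio of 5p to 3p reads was -2.86 ± 1.26 for KO against -3.64 ± 0.21 for WT (SD, n = 3 each), and the difference of 0.78 did not separate the groups (exact permutation p = 0.5, adjusted p = 0.5). It was 0.11 without KO replicate 3 and 1.35 without KO replicate 1.

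Arm ratios of other hairpins were also more variable in KO replicate 3. Over the 144 miRNA names with both arms tested, the median absolute shift of log2 5p to 3p from the WT mean was 0.41, 0.33 and 0.63 in KO replicates 1 to 3 and 0.12 to 0.14 in the WT libraries. The WT mean includes each WT library itself, which makes the WT shifts smaller, so KO and WT shifts are not like measures. For miR-671 the shift was -0.37, 0.58 and 2.12 in KO replicates 1 to 3. In KO replicate 3 a shift of at least that size was seen in 6 of the 144, miR-671 included. The median signed shift there was 0.09, so the arms of most hairpins did not move the same way. The part of this library-wide variation in the miR-671 values was not tested.

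**Figure D4:**
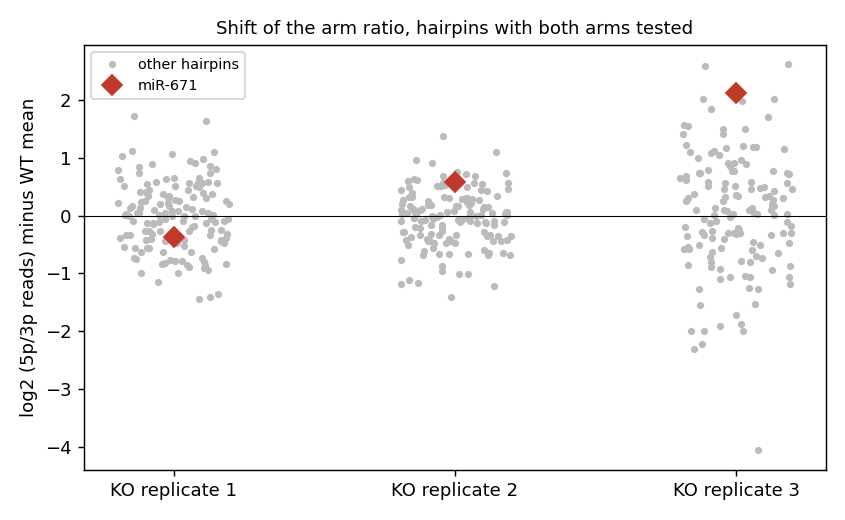
Shift of the log2 ratio of 5p to 3p reads from the WT mean (y axis) in each KO library, for miR-671 (red diamond) and the other miRNA names with both arms tested (grey points, spread sideways for visibility). The red diamond lies within the bulk in KO replicates 1 and 2 and near the upper edge, at 2.12, in KO replicate 3, where the grey points are also most spread.

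Of the miRNAs that bind Cdr1as, miR-7a-5p and miR-671-5p were set against each other within each library. There were 1015, 733.3 and 510.3 reads of miR-7a-5p for each read of miR-671-5p in KO replicates 1 to 3, and 1746, 1313 and 1259 in WT. Every KO library lay below every WT library, KO replicate 3 being lowest, and no scaling enters this ratio. On the TMM scale the 2 levels were already apart in opposite directions. The separation of the ratio, and with it the permutation p, follows from those levels and is no further evidence. Mean log2 ratios were 9.50 ± 0.50 for KO against 10.48 ± 0.26 for WT (SD, n = 3 each). The difference of -0.98 is a KO ratio 0.509 times that of WT (exact permutation p = 0.1, the smallest possible, adjusted p = 0.167). It ran from -1.22 to -0.72 with a library left out, the latter without KO replicate 3. Its precision is limited by the 58 to 114 reads of miR-671-5p per library.

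**Figure D5:**
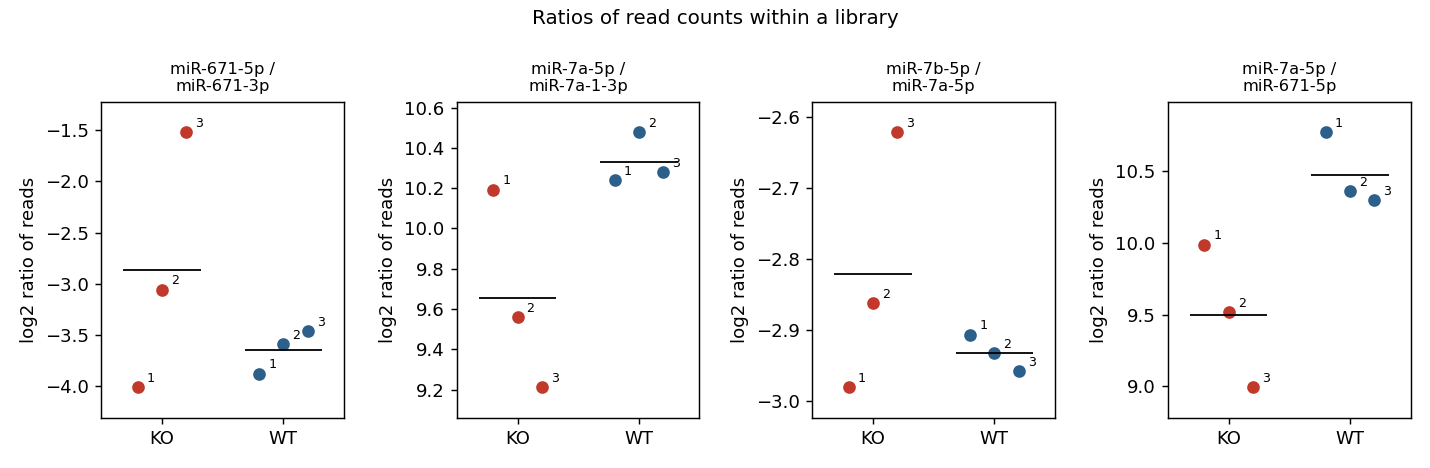
Log2 ratio of read counts within each library (y axis, not starting at 0) for 4 pairs, KO in red and WT in blue, numbered by replicate, with group means as black lines. The groups do not overlap for miR-7a-5p against miR-7a-1-3p and against miR-671-5p, and overlap for the arms of miR-671 and for the 2 miR-7 guides, where KO replicate 3 is the highest library.

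Other miRNAs known to be removed by target-directed decay, the process that Cyrano triggers for miR-7, form a list of 9 with the miR-7 guides. All 9 were tested, of which 3 had higher and 6 lower values in KO and 0 passed the test. Both miR-7 guides are among the 6, so the counts and medians of this list are not independent of the miR-7 values. Of all 541 tested miRNAs, 284 had higher and 257 lower values. The median log2 fold change of the 9 was -0.06, against 0.03 over all 541. The split without KO replicate 3 was 1 higher and 8 lower, both miR-7 guides among the lower, with 0 past the test. The median of the 9 was then -0.23, against 0.02 over all 560 miRNAs tested without that library. The most abundant after miR-7a-5p was miR-30c-5p, with KO values of 2063, 2770 and 1126 CPM against WT values of 2611, 2534 and 2491 CPM. Its log2 fold change of -0.36 (SE 0.29) rested on KO replicate 3 and was -0.06 without it. For miR-222-3p it was -0.06 (SE 0.28), and 0.20 without that library. For miR-221-3p, whose KO values of 238.1, 215.4 and 147.0 CPM all lay below the WT values of 277.8, 285.6 and 252.0 CPM, it was -0.44 (SE 0.21), and -0.25 without that library. For miR-29b-3p, at 249.6 CPM in KO replicate 3 and 77.3 to 102.2 CPM in the other 5 libraries, it was 0.50 (SE 0.42), and -0.20 without that library. These 4 had edgeR adjusted p-values of at least 0.749 with all libraries and at least 0.305 without KO replicate 3.

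Marker lists of the cell types that cortex can hold were read beside these values, and 0 of their miRNAs passed the test with all libraries (edgeR). In 2 lists the summed level of every KO library lay above that of every WT library. Taken singly, 5.18% of all tested miRNAs lay so. The 5 microglia and leukocyte miRNAs, of which 4 were tested and all 4 had higher values, summed to 216.6, 218.4 and 194.0 CPM in KO, against 180.4, 173.0 and 169.9 CPM in WT. With KO replicate 3 left out, 3 of these 4 had higher values. Then miR-146a-5p was among the 18 of 560 tested miRNAs that passed (log2 fold change 0.60, edgeR adjusted p = 0.0383). With all libraries its log2 fold change was 0.33 (edgeR adjusted p = 0.791). KO replicates 1 and 2 held 109.6 and 131.7 CPM of it. KO replicate 3 held 62.6 CPM, below the WT values of 78.3, 81.5 and 81.8 CPM. The 2 endothelial miRNAs summed to 7676, 7656 and 8063 CPM in KO, against 7146, 7050 and 7626 CPM in WT. Nearly all of this sum was miR-126a-3p, at 7641, 7604 and 8001 CPM in KO replicates 1 to 3. Values of miR-126a-5p overlapped between genotypes, at 35.8 to 62.6 CPM in KO and 39.6 to 52.5 CPM in WT. Both had higher values with all libraries, and 1 had higher and 1 lower without KO replicate 3.

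In the other lists the summed levels overlapped between genotypes. Of the 8 neuronal markers, 5 were up in KO and 3 down. Leaving out KO replicate 3 turned this split to 2 up and 6 down. The median log2 fold change of the 8 went from 0.09 to -0.04. Their summed levels were 311324 to 456565 CPM in KO and 337863 to 369354 CPM in WT. The 4 oligodendrocyte miRNAs had lower values for 3 and summed to 632.2 to 873.9 CPM in KO and 856.9 to 973.7 CPM in WT. With KO replicate 3 left out, all 4 were down. Both mural miRNAs had higher values, with sums of 30420 to 36898 CPM in KO and 28172 to 34940 CPM in WT. The neuroendocrine miR-375-3p had KO values of 42.7, 42.0 and 23.3 CPM, against WT values of 37.8, 32.5 and 40.4 CPM. Erythroid miRNAs, with 3 of 4 higher, summed to 80.3 to 120.6 CPM in KO and 75.4 to 83.4 CPM in WT. Those of hindbrain and spinal cord, 2 of 4 tested and both higher, summed to 54.4 to 100.5 CPM in KO and 67.1 to 74.8 CPM in WT.

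Of the 6 choroid plexus and multiciliated miRNAs, 4 were tested and all 4 had higher values in KO, with a median log2 fold change of 0.52 that was 0.20 without KO replicate 3. Their summed level was 1015, 1029 and 2106 CPM in KO, highest in the library with the highest miR-671-5p, and 966.0 to 1040 CPM in WT. The 5 miRNAs of epithelium and olfactory neurons summed to 15.7, 904.3 and 970.1 CPM in KO and 83.9 to 290.0 CPM in WT, with 1 of them at 0 reads in at least 1 library. The 3 sensory miRNAs summed to 45.9, 1147 and 1026 CPM in KO and 85.3 to 433.9 CPM in WT. Both lists were lowest in KO replicate 1, the KO library with the most miR-7a-5p and miR-671-3p. Among the WT libraries the order went the other way. There both lists, miR-7a-5p and miR-671-3p were all lowest in WT replicate 2 and highest in WT replicate 3. The part of these cell types in the miR-7 and miR-671 values was not tested.

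Some miRNAs outside the circuit followed the same course over the 6 libraries, where all miRNAs of a library share its depth and scaling. Among 301 other miRNAs of at least 10 CPM, log2 levels tracked those of miR-7a-5p most closely for a miRNA predicted by the authors (Pearson r = 0.98), miR-744-5p (r = 0.97) and miR-219b-5p (r = 0.93), where the median r was 0.19. The sister guide miR-7b-5p came 6th (r = 0.86). KO libraries had 979.8, 666.8 and 731.6 CPM of miR-744-5p, WT libraries 1040, 1077 and 1193 CPM, with a log2 fold change of -0.48 (SE 0.18, edgeR adjusted p = 0.705). Closest to miR-671-3p were miR-12194-3p (r = 0.99), miR-673-5p (r = 0.98) and miR-674-3p (r = 0.98), where the median r was 0.43. KO values of miR-674-3p were 474.1, 326.7 and 217.0 CPM against WT values of 347.4, 399.7 and 383.6 CPM, the same order of KO libraries as miR-671-3p. The sister arm miR-671-5p, which is below 10 CPM and so outside that set, had r = -0.66, with 58 to 114 reads per library behind it.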

How the data were processed

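Read counts per mature miRNA and TPM values were deposited by the authors, per the file headers. The counts are whole numbers with no normalization, and each TPM value is a count over its column total. Per the submitters' processing notes, Bowtie and DESeq2 were used with mm10. Settings, the miRBase release and the handling of multiply matching reads: not given in the sources used here. There were 0 value columns of no sample.

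Members and lists were chosen with earlier results of these data known. Genotype came from the labels, and replicate numbers follow accession order and only name a library. The counts were tested with edgeR 4.0.16 (R 4.3.3): filterByExpr at a minimum count of 10, TMM scaling, the robust quasi-likelihood test, and Benjamini-Hochberg adjustment over all 541 tested miRNAs at 0.05. Intervals are at 95%. Ratios used reads plus 0.5 and an exact two-sided permutation test of mean log2 values, whose smallest p is 0.1. DESeq2 1.42.0, limma 3.58.1, other scalings, no filter and each library left out were alternatives. The procedure was tested on simulated counts. Named miRNAs were the members, other arms and seeds of their families, the most abundant of the listed decay-prone miRNAs, and the 3 whose log2 CPM correlated most closely with that of miR-7a-5p and of miR-671-3p. Among the cell markers, miR-375-3p is named as the single member of its list. The markers miR-146a-5p, miR-126a-3p and miR-126a-5p were named after their values were seen. Reads carry no molecular identifiers, so intervals from counts cover counting error alone.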

Additional observations from a re-analysis of the deposited data

How the results depend on the processing

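Over 14 alternatives of tool, scaling, filter and libraries, 0 of the 5 miRNAs passed the threshold, and miR-7a-5p, miR-7b-5p, miR-7a-1-3p and miR-671-5p kept their direction. For miR-671-3p the log2 fold change reversed to 0.30 without KO replicate 3, and ran from -0.56 to 0.30 over left-out libraries. The count of all tested miRNAs past the threshold was 0 in each alternative with all 6 libraries and ran from 0 to 18 over left-out libraries, the 18 being without KO replicate 3. The count at an unadjusted p under 0.05 was 35, and ran from 14 without WT replicate 2 to 97 without KO replicate 3. Of the 5 miRNAs, the number with groups apart was 3. With settings chosen after seeing the data it was 1 with column totals alone, and 3 to 5 over left-out KO libraries, where 25.5% to 34.2% of all tested miRNAs were apart. Also without KO replicate 3, an alternative chosen after seeing the data for the listed miRNAs, miR-222-3p reversed to 0.20 and miR-29b-3p to -0.20. The cause of these moves was not tested. The sum and the 4 ratios kept their sign in every alternative tried, but their tests cannot pass 0.05 with 3 libraries a genotype. The 58 to 114 reads of miR-671-5p per library limit its precision. No paired analysis was possible because the labels give no replicate numbers that join KO and WT libraries.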
